A study of Aspergillus niger with 16 samples.

Results

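The comparison described here is between 24 h and 8 h on sugar beet pectin in an *Aspergillus niger* strain that lacks *gaaR*. Its libraries were taken by their labels, and it rests on 4 of the 16 libraries of the series, 2 at each time. *A. niger* is a filamentous fungus that lives on plant material and secretes enzymes that take plant polysaccharides apart.

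Pectin is a plant cell wall polymer whose backbone is largely D-galacturonic acid (GA), with stretches of rhamnogalacturonan that carry side chains of arabinose and galactose. Fungi cut the backbone with polygalacturonases, lyases and esterases, trim the side chains with arabinanases and galactosidases, take up the released sugars and convert them inside the cell. GaaR is a transcription factor that activates many of the genes for GA release, uptake and breakdown, GaaX is the repressor that holds GaaR inactive when GA is absent, and other regulators respond to arabinose, xylose and starch sugars.

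The series holds 8 groups of 2 libraries of total RNA from mycelium. The strain CBS 141257 is the reference, and CBS 141258 carries the *gaaR* deletion; each genotype is represented by 1 strain, and the labels give no other allele. For every group, mycelium was first grown from spores on fructose in complete medium, washed, and then moved to minimal medium. The 4 libraries compared are the deletion strain after 8 h and after 24 h with sugar beet pectin as the carbon source. The reference strain at the same times is given beside them, and 2 h levels are given where they help to read the 8 h level. Whether the 2 libraries of a group stem from separate cultures is not in the labels, so a p-value here reflects the spread between libraries alone, which may be technical.

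Total expected read counts were 3511657 and 3942921 in the 8 h libraries and 4196454 and 4178290 in the 24 h libraries, within the range of 3203011 to 4574019 over all 16. The replicates compared here differed by more than sampling noise, as separate libraries do, but by little: among genes with a mean of at least 20 reads, 2.94% differed more than 2-fold between the 8 h libraries and 1.81% between the 24 h libraries. Other groups lay further apart, with 7.43% for the reference at 24 h, which enters every comparison between the strains, 9.98% for the deletion strain at 2 h on pectin, whose levels are cited below, and 8.68% for the deletion strain on GA. All groups enter the shared estimate of the spread. Each deposited level is an FPKM value, that is, a fragment number scaled by coding length and by the depth of the library. Fold changes come from read counts with edgeR, are given on the log2 scale as 24 h against 8 h with their standard error (SE), and calls were made where the adjusted p was under 0.05. The scaling (TMM) removes a shift that FPKM keeps: the median change of all genes was 0.01 on the log2 scale with TMM and 0.29 with total counts. FPKM ratios therefore run higher, by about this shift, than the fold changes printed beside them.

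The deletion was visible in all 4 libraries. *gaaR* (NRRL3_08195) had 24 reads in each 8 h library, at 3.01 and 2.69 FPKM, and 0 reads in both 24 h libraries. The reference strain had 58.2 and 62.9 FPKM at 8 h and at 82.5 and 94.9 FPKM at 24 h. Taking 3 reads per library as the limit that a count of 0 allows, the residual signal was at least 10.9-fold lower at 24 h than at 8 h. At 2 h on pectin the deletion libraries had 0 and 1.43 FPKM. Where the reads at 8 h came from was not tested. Their part in the 8 h levels described below, and so in the falls to 24 h, was not tested either.

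Of 10003 genes tested, 2902 (29.0%) were called between the times, 1398 (14.0%) higher and 1504 (15%) lower at 24 h. The higher calls were more often large. At least 2-fold changes were called for 1037 genes higher and 1067 lower. At least 8-fold changes were called for 256 genes higher and 132 lower, and at least 32-fold changes for 70 higher and 36 lower. Of the 572 genes at up to 1 FPKM at 8 h, which have little room to fall, 145 were called higher and 8 lower. Of the 358 genes with a mean of up to 1 FPKM over the 4 libraries, 11 were higher and 12 lower. The shares of all genes given below are not matched for level. The split between directions depends on the scaling: with total counts 2251 genes were called higher and 969 lower, so that 69.9% of calls were higher in place of 48.2%. Leaving out replicate 2 at 8 h left 1835 calls, and leaving out replicate 2 at 24 h left 1714. There were 19 genes that had 0 reads in both 8 h libraries and at least 10 reads in both 24 h libraries, and 4 genes with the reverse.

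**Figure D1:**
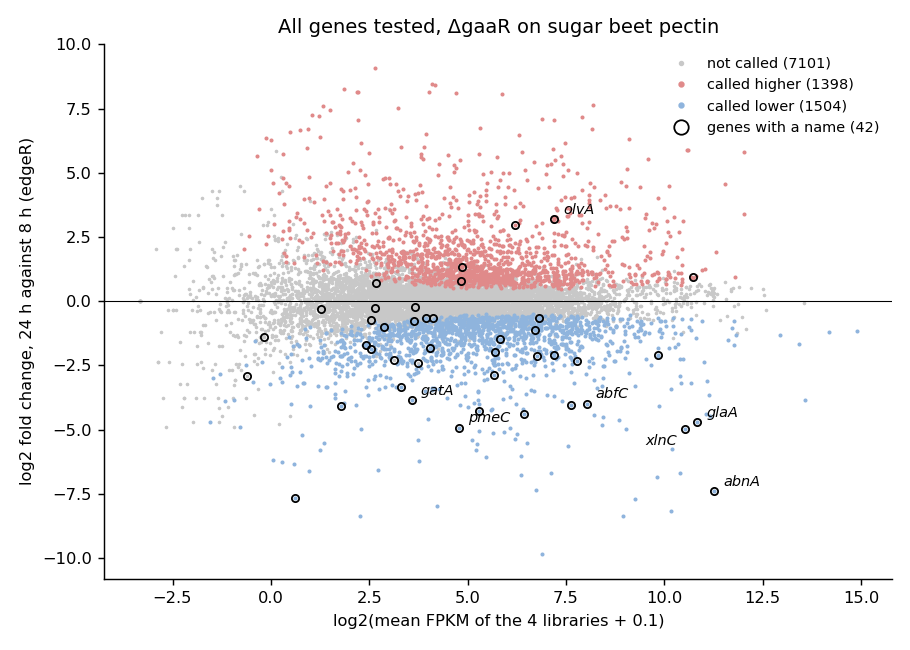
Change from 8 h to 24 h on sugar beet pectin in the *gaaR* deletion strain for the 10003 genes tested. The horizontal axis is log2 of the mean FPKM of the 4 libraries plus 0.1, the vertical axis is the log2 fold change from edgeR, and circles mark the 42 genes with a name; *abnA*, *glaA* and *xlnC* lie far below 0 at high levels, and *olvA* lies above 0. The lowest circle is *gaaR*, whose fitted value depends on the prior count because both 24 h libraries had 0 reads.

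Expression also became more even. The 10 genes with most reads took 11.4% and 10.2% of all reads at 8 h, and 5.49% and 5.79% at 24 h. The number of genes that held 50% of the reads was 383 and 424 at 8 h and 654 and 607 at 24 h. The 8 h libraries thus had the higher concentration in both replicates, without overlap. Called genes also differed in size: the median coding length was 1200 bases for genes called higher, 1477.5 bases for genes called lower and 1320 bases for all genes tested. Among the 2502 shortest genes 440 were called higher and 257 lower, and among the 2489 longest 248 were higher and 431 lower. RNA quality values were not used here, and the part of RNA quality in this relation was not tested.

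The gene identifiers are NRRL3 locus tags. The 42 names used here were recalled from published work and not looked up. Where possible they were checked by gene length and gene order, but the 23 names of the earlier work were kept whatever the outcome. Among these, *gaaC* failed the length check and *pgaX* the order check, and *gaaB*, *pgaC*, *abfC* and *lacC* had no order check. *abnC* had no RefSeq gene assigned, so its name rests on recall alone. Over these 42 genes, 4 were called higher, 23 lower and 15 neither way, with a median log2 fold change of -1.93 against 0.01 over all genes tested. The genes were picked for pectin breakdown and related functions with earlier results of these libraries known, so this count describes them and is no independent evidence of a direction.

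**Figure D2:**
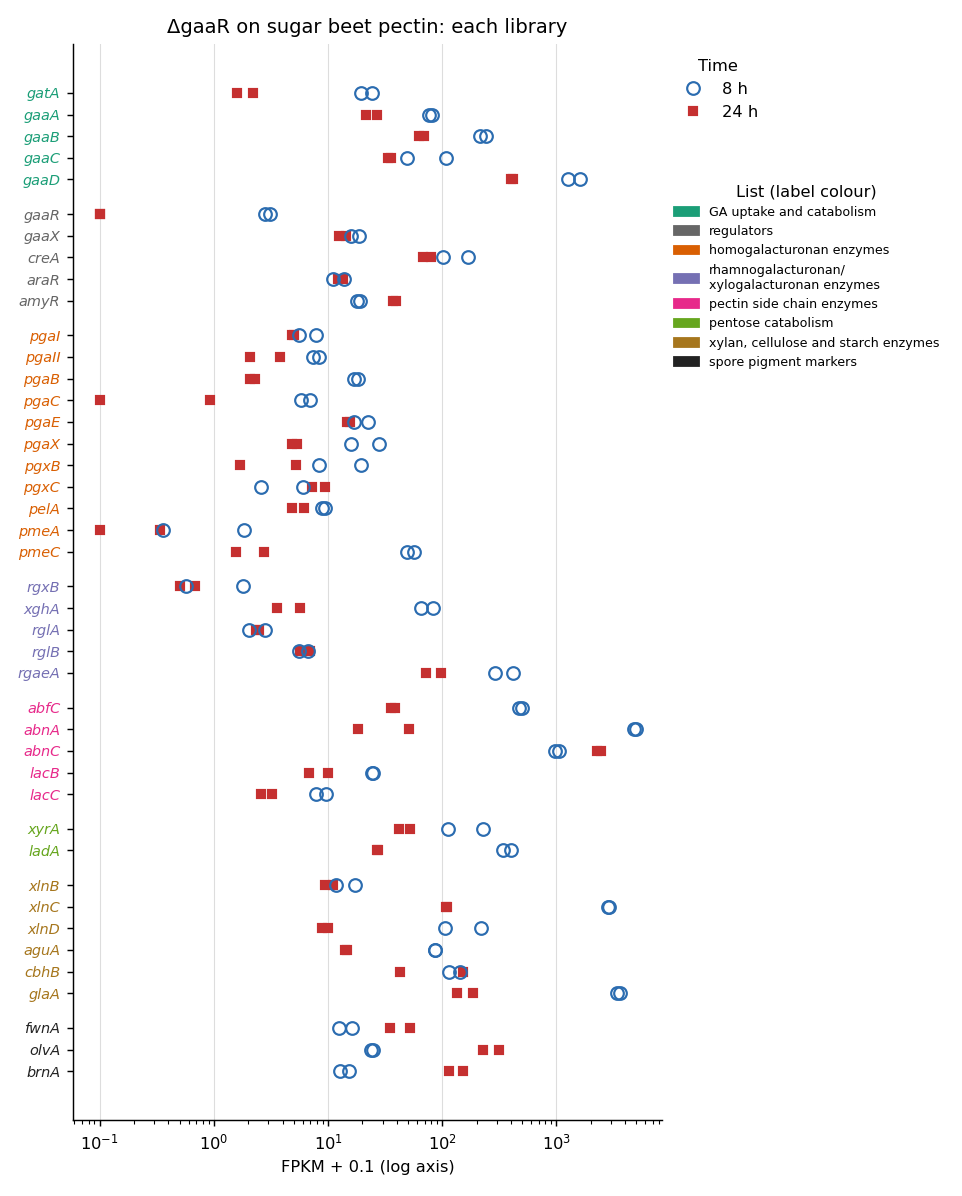
FPKM plus 0.1, on a log axis, of each named gene in the 2 libraries at 8 h (open circles) and the 2 at 24 h (filled squares) of the *gaaR* deletion strain; label colours mark the gene lists. The 8 h points lie to the right for all 5 GA genes, and the 24 h points lie to the right for *amyR*, *pgxC*, *abnC*, *fwnA*, *olvA* and *brnA*. The level ranges overlap for *araR*, *rgxB*, *rglA*, *rglB* and *cbhB*. The share of all genes whose ranges do not overlap was not counted.

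All 3 spore pigment genes rose, against 14.0% of all genes tested. *fwnA* (NRRL3_00462), the polyketide synthase that starts the pigment of the conidia, *olvA* (NRRL3_01039) and *brnA* (NRRL3_01040), which act on later steps, served as markers of spore formation in the mycelium. *fwnA* measured 12.3 and 16.2 FPKM at 8 h and 51.7 and 34.6 FPKM at 24 h, *olvA* 24.8 and 23.8 against 313 and 229 FPKM, and *brnA* 12.6 and 15.2 against 150 and 114 FPKM. No 8 h library reached the level of a 24 h library for any of them. The log2 fold changes were 1.32 (SE 0.25, adjusted p = 0.00077), 3.20 (SE 0.31, adjusted p = 1.5e-06) and 2.97 (SE 0.36, adjusted p = 1.6e-05).

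The same genes stayed low in the reference strain, at 6.57 and 6.50 FPKM for *fwnA*, 17.9 and 8.81 FPKM for *olvA* and 3.96 and 4.52 FPKM for *brnA* at 8 h. At 24 h they measured 4.09 and 4.27, 13.2 and 17.4, and 3.20 and 1.48 FPKM. In the reference *fwnA* was called lower at 24 h (-0.72, SE 0.26, adjusted p = 0.035), and *olvA* and *brnA* were not called. The difference of the change between the strains was called as positive for 3 of 3 genes, against 15.4% of all genes, at 2.03 (SE 0.36, adjusted p = 0.0004), 3.07 (SE 0.44, adjusted p = 6.4e-05) and 3.90 (SE 0.61, adjusted p = 0.00013). Without reference replicate 1 at 24 h, the value for *brnA* was 4.55. The summed level of the 3 genes was 14.5 and 15.4 FPKM at 2 h, 49.6 and 55.2 FPKM at 8 h and 515 and 378 FPKM at 24 h in the deletion strain, and between 19.8 and 28.5 FPKM in the 4 reference libraries at 8 h and 24 h. None of the 3 was at 0 in the 4 libraries compared. The marker sum rose between the same 4 libraries on which the results below rest, and its part in those results was not tested. In RNA from whole mycelium, a change in the share of a cell type and a change in RNA per cell cannot be told apart.

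The genes that take up and break down GA fell from an 8 h level that was already far below that of the reference strain. The 8 h libraries were also those with residual *gaaR* reads, and the part of these reads in the fall was not tested. All 5 of the list were called lower, against 15% of all genes tested, with a median log2 fold change of -2.08. Their summed level was 1962 and 1725 FPKM at 8 h and 531 and 539 FPKM at 24 h. The reference strain went from 26677 and 27548 FPKM to 1110.3 and 2150.1 FPKM at 24 h. *gaaD* carried most of the sum in the deletion strain. For the other 4 genes both deletion libraries stayed below both reference libraries at 24 h, with means of 1.81 against 57.9 FPKM for *gatA*, 24.1 against 215 FPKM for *gaaA*, 65.6 against 208.6 FPKM for *gaaB* and 34.4 against 527 FPKM for *gaaC*.

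*gatA* (NRRL3_00958), the GA transporter, measured 19.5 and 24.3 FPKM at 8 h and 1.51 and 2.12 FPKM at 24 h, a log2 fold change of -3.85 (SE 0.45, adjusted p = 9.2e-06). *gaaA* (NRRL3_05650), the reductase of the first step, measured 81.7 and 76.2 FPKM and then 21.5 and 26.6 FPKM (-1.98, SE 0.31, adjusted p = 0.00017). *gaaB* (NRRL3_06890), the dehydratase of the next step, measured 216 and 244 FPKM and then 68.5 and 62.8 FPKM (-2.08, SE 0.42, adjusted p = 0.0015). In each of these genes both 24 h libraries lay below both 8 h libraries. *gaaC* (NRRL3_05649), the aldolase, was less even at 8 h, with 48.9 and 107 FPKM against 35.6 and 33.1 FPKM (-1.46, SE 0.36, adjusted p = 0.0067). Without replicate 2 at 8 h its value was -0.78 (adjusted p = 0.17), and without replicate 2 at 24 h the adjusted p was 0.055.

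*gaaD* (NRRL3_10050), the L-glyceraldehyde reductase of the last step, was the most abundant of the list in the deletion strain. It stood at 4325 and 3289 FPKM at 2 h, 1596 and 1273 FPKM at 8 h and 404 and 414 FPKM at 24 h, so its level was lower at each later time. The change from 8 h to 24 h was -2.08 (SE 0.34, adjusted p = 0.00026). At 24 h the reference strain held 396 and 847 FPKM, a range that contains both deletion libraries.

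For 4 of these 5 genes the fall in the reference strain was larger when the difference was tested. A positive difference was called for 15.4% of all genes. The difference of the change, deletion strain minus reference, was 1.79 for *gaaA* (SE 0.42, adjusted p = 0.0039), 3.52 for *gaaB* (SE 0.59, adjusted p = 0.00025), 2.14 for *gaaC* (SE 0.50, adjusted p = 0.0036) and 1.60 for *gaaD* (SE 0.47, adjusted p = 0.015). The value for *gaaC* was 2.83 without deletion replicate 2 at 8 h. That for *gaaD* was 1.47 without the same library (adjusted p = 0.064), 1.15 without reference replicate 1 at 24 h (adjusted p = 0.059) and 2.25 without reference replicate 2 at 24 h. *gatA* changed by -3.85 in the deletion strain and by -4.29 (SE 0.37) in the reference, and the difference of 0.44 (SE 0.60, adjusted p = 0.62) was within its error.

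**Figure D3:**
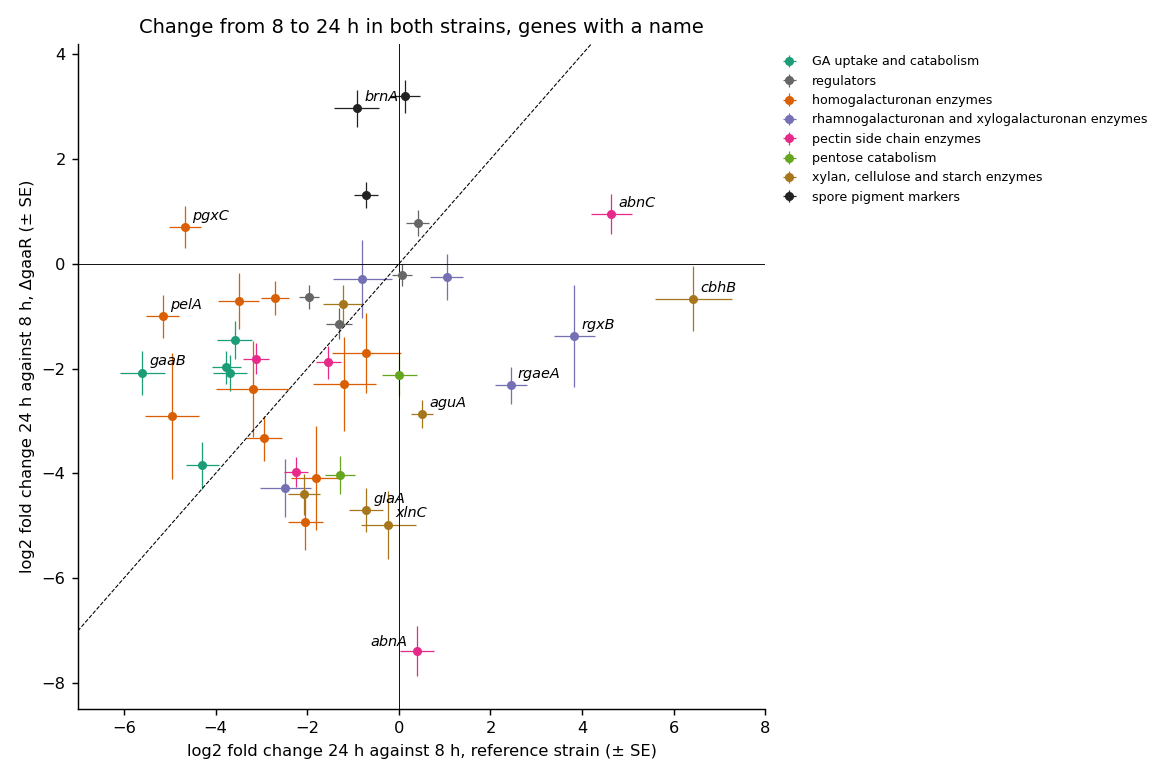
Log2 fold change of 24 h against 8 h in the *gaaR* deletion strain (vertical) against the same in the reference strain (horizontal) for 41 named genes, with bars of ± 1 SE; *gaaR* is left out. The dashed line marks equal change. The points of the GA genes lie above the line, and *pgxC* and *pelA* lie far above it. *abnA*, *abnC*, *rgaeA*, *rgxB*, *cbhB*, *xlnC*, *glaA* and *aguA* lie far below it.

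Of 5 regulator genes, *gaaR* included, 3 were called lower and 1 higher, against 15% and 14.0% of all genes. *gaaX* (NRRL3_08194), the repressor partner of GaaR, measured 15.7 and 18.7 FPKM at 8 h and 12.3 and 14.4 FPKM at 24 h, with a log2 fold change of -0.64 (SE 0.23, adjusted p = 0.045). That call was lost when any 1 of the 4 libraries was left out (adjusted p from 0.074 to 0.27) and with total count scaling (-0.36, adjusted p = 0.29). *creA* (NRRL3_05946), the regulator of carbon catabolite repression, fell from 101 and 168.6 FPKM to 67.4 and 80.2 FPKM (-1.14, SE 0.30, adjusted p = 0.0088). Without replicate 2 at 8 h its value was -0.73 (adjusted p = 0.16), and without replicate 1 at 24 h it was -0.98 (adjusted p = 0.09). *amyR* (NRRL3_07702), the activator of starch-degrading enzymes, was higher at 24 h, with 19.0 and 17.8 FPKM at 8 h and 39.4 and 37.0 FPKM at 24 h (0.78, SE 0.25, adjusted p = 0.025), although leaving out any 1 library raised its adjusted p to between 0.08 and 0.13. *araR* (NRRL3_07564), the activator of arabinose metabolism, measured 11.04 and 13.6 FPKM at 8 h and 13.4 and 12.2 FPKM at 24 h, and these groups overlapped. Its log2 fold change of -0.22 (SE 0.21, adjusted p = 0.47) became 0.06 with total count scaling.

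The 11 enzymes of homogalacturonan, the smooth GA backbone, stayed low at both times. Their summed level was 181 and 140 FPKM at 8 h and 47.7 and 51.2 FPKM at 24 h, against 3087 and 3972 FPKM and then 603 and 655 FPKM in the reference strain. In the deletion strain 3 of 11 were called lower, 0 higher and 8 neither way, with a median of -2.29, where 15% of all genes were called lower and 14.0% higher. The reference strain had 9 of 11 called lower, against 21.4% of all genes.

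The 3 called were 2 endopolygalacturonases, which cut inside the backbone, and 1 pectin methylesterase. *pgaB* (NRRL3_05859) measured 18.2 and 16.8 FPKM at 8 h and 1.96 and 2.18 FPKM at 24 h (-3.33, SE 0.43, adjusted p = 2.9e-05). *pmeC* (NRRL3_07470) fell from 56.5 and 49.4 FPKM to 1.45 and 2.67 FPKM (-4.93, SE 0.53, adjusted p = 4.5e-06), the largest fall of the list. *pgaC* (NRRL3_08805) rested on few reads, 23 and 31 at 8 h and 0 and 4 at 24 h (-4.09, SE 0.99, adjusted p = 0.0053). Without replicate 1 at 24 h the value for *pgaC* was -3.10 (adjusted p = 0.056), and without replicate 2 it was -7.80.

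The other endopolygalacturonases were not called in either direction. *pgaE* (NRRL3_02835) measured 22.4 and 16.9 FPKM and then 15.6 and 14.6 FPKM (-0.65, SE 0.32, adjusted p = 0.14), and *pgaI* (NRRL3_02571) 7.69 and 5.49 FPKM and then 4.93 and 4.73 FPKM (-0.71, SE 0.53, adjusted p = 0.35). *pgaII* (NRRL3_04000) measured 7.30 and 8.15 FPKM and then 1.96 and 3.71 FPKM (-1.70, SE 0.76, adjusted p = 0.11). In all 3 genes both 24 h libraries lay below both 8 h libraries, although no change was called. The share of all genes with such an order was not counted, so the order describes these 3 genes alone.

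The exopolygalacturonases release GA from chain ends. *pgaX* (NRRL3_03144) measured 27.6 and 15.8 FPKM at 8 h and 4.69 and 5.24 FPKM at 24 h (-2.39, SE 0.91, adjusted p = 0.061), and *pgxB* (NRRL3_08281) 19.5 and 8.21 FPKM and then 5.18 and 1.61 FPKM (-2.29, SE 0.90, adjusted p = 0.067). With no filter on low counts the adjusted p was 0.036 for *pgaX* and 0.042 for *pgxB*. When the 4 libraries were fitted alone it was 1.7e-05 and 0.00083, and 0.0055 for *pgaII*. *pgxC* (NRRL3_05260) went the other way, with 5.97 and 2.48 FPKM at 8 h and 7.13 and 9.29 FPKM at 24 h (0.70, SE 0.40, adjusted p = 0.20). It was called without replicate 1 at 8 h (1.46, adjusted p = 0.048) and was 0.18 without replicate 2 at 8 h. Leaving out 1 library moved *pgxB* to between -1.54 and -3.30, without a call.

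*pgxC* of the reference strain dropped from 194 and 189 FPKM to 7.92 and 7.87 FPKM, so that at 24 h the ranges of the 2 strains overlapped. The difference of the change for *pgxC* was 5.37 (SE 0.51, adjusted p = 1.2e-06), and 6.13 without deletion replicate 1 at 8 h. The pectin lyase gene *pelA* (NRRL3_00965) measured 8.71 and 9.33 FPKM and then 4.78 and 6.04 FPKM in the deletion strain (-1.0, SE 0.41, adjusted p = 0.078; 0.036 in the fit of 4 libraries alone). In the reference it fell from 734 and 990 FPKM to 35.4 and 15.5 FPKM, and the difference was 4.15 (SE 0.53, adjusted p = 2.1e-05; 4.87 without reference replicate 1 at 24 h). The methylesterase gene *pmeA* (NRRL3_08325) was near the limit of detection, with 6 and 1 reads at 8 h and 0 and 1 reads at 24 h. The ratio of its pooled levels, 8 h over 24 h, was 9.54 with a 95% counting interval of 1.23 to 430, which covers counting error only. Its fitted change was not called (adjusted p = 0.081), except without replicate 2 at 8 h (adjusted p = 0.033).

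The enzymes of the branched backbone, rhamnogalacturonan and xylogalacturonan, had 2 of 5 genes called lower and 0 higher, against 15% and 14.0% of all genes, with a median of -1.38. *rgaeA* (NRRL3_00169), an acetylesterase of rhamnogalacturonan, fell from 417 and 288 FPKM to 72.6 and 97.6 FPKM (-2.32, SE 0.35, adjusted p = 0.00012). The reference strain showed a rise from 122 and 266 FPKM to 1085 and 1142 FPKM (2.44, SE 0.35, adjusted p = 3.5e-05). The 2 strains thus moved in opposite directions, and the difference was -4.76 (SE 0.50, adjusted p = 3e-06; -5.47 without reference replicate 2 at 8 h).

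*xghA* (NRRL3_07469), the xylogalacturonan hydrolase, measured 2.04 and 1.1 FPKM at 2 h, 82.7 and 65.4 FPKM at 8 h and 3.48 and 5.63 FPKM at 24 h in the deletion strain, so its level was high at 8 h alone among these times. The change from 8 h to 24 h was -4.28 (SE 0.55, adjusted p = 2.5e-05). The reference strain had -2.48 (SE 0.56), and the difference of -1.80 (SE 0.78, adjusted p = 0.089) was not called. It was called when the 8 libraries of both strains at these times were fitted alone (-1.73, adjusted p = 0.039) and without reference replicate 2 at 24 h (-2.37, adjusted p = 0.031), and was -0.85 without reference replicate 1 at 24 h. *rgxB* (NRRL3_08631), an exo-acting rhamnogalacturonan hydrolase, stayed between 0.40 and 1.69 FPKM in the 4 deletion libraries, while in the reference it rose from 3.98 and 11.6 FPKM to 88.3 and 145 FPKM (3.83, SE 0.45, adjusted p = 4.9e-06). Its difference of -5.21 (SE 1.11, adjusted p = 0.0018) was -4.01 (adjusted p = 0.14) without deletion replicate 2 at 8 h, -4.60 without reference replicate 1 at 8 h and -6.20 without reference replicate 2 at 8 h.

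The 2 rhamnogalacturonan lyase genes had overlapping groups. *rglA* (NRRL3_00684) stayed between 1.95 and 2.69 FPKM (-0.29, SE 0.75, adjusted p = 0.81), and *rglB* (NRRL3_10115) between 5.48 and 6.80 FPKM (-0.25, SE 0.44, adjusted p = 0.71). The sign of neither value is settled: that of *rglA* was 0.00 in limma on log2(FPKM + 0.1), and that of *rglB* was 0.03 with total count scaling.

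The enzymes of the arabinan and galactan side chains held some of the highest levels at 8 h, and 4 of 5 were called lower, against 15% of all genes, with a median of -1.88. Of all genes between 100 and 1000 FPKM at 8 h, 32.6% were called lower, and of those over 1000 FPKM, 40.4%. The 8 h level is itself part of the change. With the same classes on the mean of the 4 libraries, 23.7% and 23.9% were called lower, and 20.2% and 21.0% higher. *abnA* (NRRL3_00092), an endoarabinanase that cuts inside arabinan chains, had the largest change of any named gene with reads at both times. It measured 1600 and 1224 FPKM at 2 h, 4939 and 4815 FPKM at 8 h and 18.2 and 51.0 FPKM at 24 h. Its log2 fold change was -7.40 (SE 0.48, adjusted p = 2.8e-08), and -6.81 or -8.37 without replicate 1 or replicate 2 at 24 h. The reference strain held 48.1 and 55.3 FPKM at 8 h and 86.3 and 57.4 FPKM at 24 h, a change of 0.40 (SE 0.37, adjusted p = 0.40). The strains were thus far apart in *abnA* at 8 h, whereas at 24 h the lowest library was a deletion library and the other 3 lay between 51.0 and 86.3 FPKM. The difference of the change was -7.80 (SE 0.58, adjusted p = 1.2e-07), and -7.21 or -8.77 without deletion replicate 1 or replicate 2 at 24 h.

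*abnC* (NRRL3_05407), another endoarabinanase, did not fall. It measured 1064 and 969 FPKM at 8 h and 2269 and 2462 FPKM at 24 h, with both 24 h libraries above both 8 h libraries. The TMM-scaled change of 0.95 (SE 0.38, adjusted p = 0.077) was not called. It was called with total count scaling (1.22, adjusted p = 0.0076), with DESeq2 (0.97, adjusted p = 0.036) and when the 4 libraries were fitted alone (0.94, adjusted p = 0.00041). The reference strain started lower, at 72.5 and 101 FPKM, and reached 1893 and 2666 FPKM, and the difference of the change was -3.69 (SE 0.56, adjusted p = 0.00011). At 24 h *abnC* was the most abundant named gene in both deletion libraries.

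*abfC* (NRRL3_10865), an arabinofuranosidase that removes single arabinose units, fell from 467 and 501 FPKM to 38.2 and 35.7 FPKM (-3.98, SE 0.29, adjusted p = 1.3e-07). The reference strain had nearly the same 8 h level, 461 and 422 FPKM, and fell by less, to 87.1 and 107 FPKM (difference -1.73, SE 0.37, adjusted p = 0.0019). The β-galactosidase genes *lacB* (NRRL3_02479) and *lacC* (NRRL3_11738) were at low levels. *lacB* measured 24.1 and 24.5 FPKM and then 6.77 and 9.84 FPKM (-1.81, SE 0.29, adjusted p = 0.00019), and *lacC* 9.40 and 7.72 FPKM and then 2.49 and 3.12 FPKM (-1.88, SE 0.32, adjusted p = 0.00034).

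Of the 4 pentose catabolism genes listed, which convert arabinose and xylose inside the cell, 2 passed the check of names. Both were called lower, against 15% of all genes. *ladA* (NRRL3_02523), the L-arabitol dehydrogenase, measured 784 and 821 FPKM at 2 h, 397 and 341 FPKM at 8 h and 26.9 and 27.4 FPKM at 24 h. Its change was -4.03 (SE 0.36, adjusted p = 6.5e-07), and it exceeded that of the reference strain (-1.28, SE 0.33) by -2.76 (SE 0.46, adjusted p = 0.00026). *xyrA* (NRRL3_01952), a xylose reductase, fell from 226 and 113 FPKM to 41.5 and 52.5 FPKM (-2.12, SE 0.40, adjusted p = 0.00078; -1.52 without replicate 1 at 8 h). *xyrA* of the reference strain changed by 0.01 (SE 0.38).

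**Figure D4:**
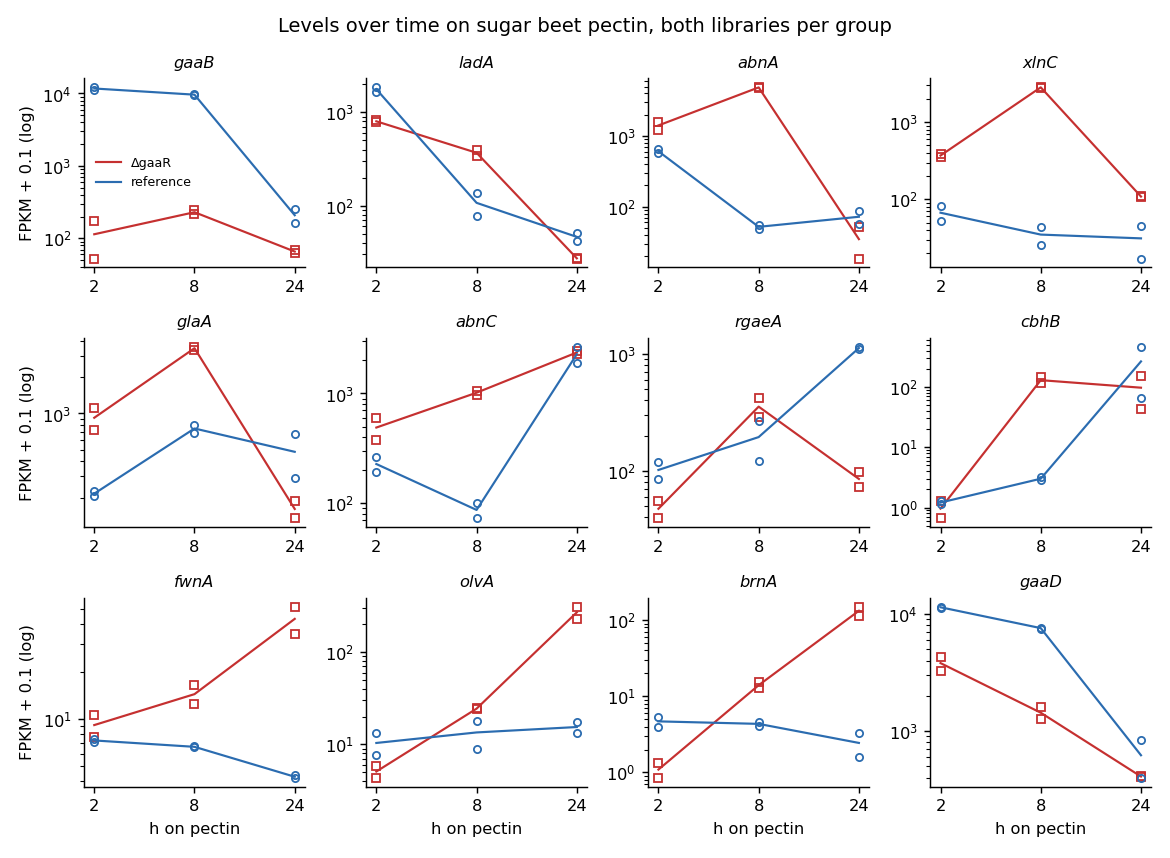
FPKM plus 0.1, on a log axis, of 12 named genes at 2, 8 and 24 h on sugar beet pectin; squares are the 2 deletion libraries and circles the 2 reference libraries of each time, and lines join the group means. *abnA*, *xlnC* and *glaA* stand highest at 8 h in the deletion strain, *ladA* and *gaaD* are lower at each later time, and *fwnA*, *olvA* and *brnA* are higher at each later time.

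Most enzymes for xylan, cellulose and starch were also lower at 24 h. In this list of 6, 4 genes were called lower and 0 higher, against 15% and 14.0% of all genes, with a median of -3.64, and the summed level went from 6862 and 6578 FPKM to 318 and 481 FPKM. The reference strain had 989 and 987 FPKM at 8 h and 1264 and 471 FPKM at 24 h. Over the same 4 deletion libraries the spore pigment sum went from 49.6 and 55.2 FPKM to 515 and 378 FPKM.

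*xlnC* (NRRL3_08708), an endoxylanase, measured 382 and 358 FPKM at 2 h, 2807 and 2862 FPKM at 8 h and 108 and 109 FPKM at 24 h (8 h to 24 h: -4.98, SE 0.65, adjusted p = 2.9e-05). *glaA* (NRRL3_08300), the glucoamylase that releases glucose from starch, measured 1108 and 734 FPKM, then 3589 and 3398 FPKM, then 134 and 187 FPKM (-4.71, SE 0.42, adjusted p = 7.2e-07). Both genes therefore had their highest level at 8 h and fell below their 2 h level by 24 h. The reference strain held 44.0 and 25.7 FPKM of *xlnC* at 8 h and 691 and 809 FPKM of *glaA*, and neither gene was called there (-0.23, SE 0.60, and -0.72, SE 0.37). The differences were -4.75 (SE 0.85, adjusted p = 0.00043) for *xlnC* and -3.99 (SE 0.53, adjusted p = 3.2e-05) for *glaA*, and -3.86 and -3.25 without reference replicate 1 at 24 h.

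*xlnD* (NRRL3_02451), a β-xylosidase, fell from 218 and 106 FPKM to 8.68 and 9.86 FPKM (-4.40, SE 0.39, adjusted p = 6.2e-07; -3.78 without replicate 1 at 8 h). *aguA* (NRRL3_01069), an α-glucuronidase that acts on xylan side groups, fell from 86.7 and 86.3 FPKM to 14.0 and 14.5 FPKM (-2.87, SE 0.26, adjusted p = 7.1e-07). In the reference strain *aguA* changed by 0.51 (SE 0.24, adjusted p = 0.098), and the difference was -3.38 (SE 0.35, adjusted p = 2.7e-06). The other endoxylanase gene, *xlnB* (NRRL3_01708), was low and not called, at 17.0 and 11.7 FPKM and then 10.98 and 9.38 FPKM (-0.77, SE 0.37, adjusted p = 0.13).

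*cbhB* (NRRL3_02584), a cellobiohydrolase, differed in time course from the rest of its list. It was near 1 FPKM at 2 h (0.56 and 1.16), 144 and 114 FPKM at 8 h, and 42.2 and 151 FPKM at 24 h, where the 2 replicates spanned the 8 h values (-0.67, SE 0.62, adjusted p = 0.45). That value was 0.00 without replicate 1 at 24 h and -1.92 (adjusted p = 0.085) without replicate 2. In the reference strain it was still at 3.09 and 2.72 FPKM at 8 h and reached 461 and 66.2 FPKM at 24 h (6.43, SE 0.84, adjusted p = 1.4e-05). The difference of -7.10 (SE 1.03, adjusted p = 7.3e-05) ranged from -5.09 without reference replicate 1 at 24 h to -8.35 without deletion replicate 2 at 24 h, and was -6.43 and -7.90 without the other 24 h library of the deletion strain and of the reference.

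The 4 genes without a name that changed most, among those with a mean of at least 10 FPKM at 1 of the times and reads in all 4 libraries, ran in the same direction in both strains. NRRL3_11773 went from 1035 and 926 FPKM to 3.67 and 3.50 FPKM (-8.36, SE 0.41, adjusted p = 3.4e-09), and NRRL3_03768 from 2440 and 2173 FPKM to 7.68 and 11.5 FPKM (-8.18, SE 0.45, adjusted p = 7.9e-09). In the reference strain these 2 genes changed by -5.37 and -3.34. NRRL3_01479 rose from 1.79 and 2.88 FPKM to 419 and 745 FPKM (7.66, SE 0.62, adjusted p = 3.1e-07), and NRRL3_11379 from 3.55 and 1.90 FPKM to 379 and 567 FPKM (7.15, SE 0.51, adjusted p = 3.1e-07). In the reference strain they rose by 3.62 (SE 0.52) and 3.78 (SE 0.67). These genes were selected by the size of their change, so the values describe them.

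Across all genes, the reference strain had more calls over the same interval, 4487 of 10003 (44.9%), with 2349 higher (23.5%) and 2138 lower (21.4%). Of the 1398 genes called higher in the deletion strain, 536 (38.3%, and 22.8% of the reference list) were also called higher in the reference strain, and 207 (14.8%, and 9.68% of the reference list) were called lower there. Of the 1504 genes called lower, 510 (33.9%, and 23.9% of the reference list) were also called lower in the reference, and 355 (23.6%, and 15.1% of the reference list) were called higher. These calls come from different libraries but share 1 estimate of the spread. The difference of the change itself was called for 3391 genes (33.9%), 1545 in which the deletion strain moved more upward or less downward (15.4%) and 1846 in which it moved the other way (18.5%).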

How the data were processed

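The 16 deposited tables, 1 per library, list for each gene an expected count and its FPKM, per the file headers. BWA, Bowtie2 and RSEM are named in the submitters' processing notes, while versions, the role of each tool and the genome build are not given in the sources used here. The deposited expected counts carry no normalization, and 548 of 168277 (0.33%) were not whole within 0.001. In the deposited FPKM, reads are scaled by coding length and library total. A gene that a file does not list was taken as 0 reads, and 10554 and 10551 genes were listed at 8 h and 10839 and 10857 at 24 h.

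After rounding, the counts were tested in R 4.3.3 with edgeR 4.0.16 (quasi-likelihood F test, two-sided). TMM scaling and filterByExpr were used, with all 16 libraries in 1 fit and 1 mean per group (10003 genes, 8 residual degrees of freedom, common dispersion 0.0414). P-values were adjusted by Benjamini-Hochberg over all genes tested. The difference between strains is the interaction contrast of the same fit. SE is the absolute log2 fold change divided by the square root of F. Other settings were RLE and total count scaling, DESeq2 1.42.0, no filter, fits of only the libraries compared, limma 3.58.1 with trend on log2(FPKM + 1) and log2(FPKM + 0.1), a replicate block and each library left out. The fit was tested on simulated counts, with the common dispersion for every gene. Of 100 genes changed 2-fold, 39% were called in the right direction, and of 100 changed 4-fold, 93%. There were 8 false calls. The changed genes were drawn from those with a mean of at least 20 reads over the 16 libraries. A gene that was not called may thus still have changed about 2-fold. For genes with fewer reads or a wider spread the simulation sets no such limit, and *pgaX* was not called at -2.39. Descriptions used Python 3.11.15 with pandas 2.3.3 and numpy 2.4.6, and figures matplotlib 3.10.9.

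The genes, lists and comparison were chosen with earlier results of these data known. All genes of fixed lists with a usable name are given, plus, among genes without a name, the 2 called with the largest rise and the 2 with the largest fall (mean of at least 10 FPKM in the higher group, no overlap, reads in all 4 libraries). Of 45 recalled names, 42 were used. The 22 added to the 23 of the earlier work were to be checked by protein length, which was not possible here. In its place a name was kept where the coding length did not exceed the RefSeq gene length of the recalled gene in assembly ASM285v2 (another strain) and the distance in tags to a neighbouring recalled gene was 0.6 to 1.1 times that in RefSeq genes. This kept 19 and left out *xlnR*, *xdhA* and *xkiA*. Of the 23 earlier names, all were used: 17 of the 18 with such a neighbour passed (*pgaX* did not), and the coding length of *gaaC* exceeded the RefSeq gene length. No sequences are given.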

Additional observations from a re-analysis of the deposited data

Results flagged for a closer look

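For 30 of the 46 genes described by name or tag, *gaaR* included, the change from 8 h to 24 h differed between the strains. The interaction test of the same edgeR fit was used (adjusted p under 0.05). Over all 10003 genes tested the same call was made for 33.9%. The named genes were chosen with earlier results of these data known. Those without a name were chosen by the size of the deletion strain's change, which enters the difference. The count thus describes these genes and is no independent evidence. Values are the log2 change in the deletion strain minus that in the reference strain, from 2 libraries per group. *gaaR*, with 0 reads at 24 h in the deletion strain, is left out of the values below.

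Among GA uptake and breakdown genes and their repressor, the value was 1.79 for *gaaA*, 3.52 for *gaaB*, 1.33 for *gaaX*, 2.14 for *gaaC* (2.83 without deletion replicate 2 at 8 h) and 1.60 for *gaaD*. The last was not called without deletion replicate 2 at 8 h (1.47, adjusted p = 0.064) or reference replicate 1 at 24 h (1.15, adjusted p = 0.059), and was 2.25 without reference replicate 2 at 24 h.

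Among backbone enzymes, positive values were 2.06 for *pgaE*, 5.37 for *pgxC* (6.13 without deletion replicate 1 at 8 h), 4.15 for *pelA* (4.87 without reference replicate 1 at 24 h) and 2.79 for *pgaI*, which was 4.18 or 2.09 without reference replicate 1 or 2 at 24 h. Negative values were -2.88 for *pmeC* (-1.78 or -3.50 without reference replicate 1 or 2 at 24 h), -4.76 for *rgaeA* (-5.47 without reference replicate 2 at 8 h) and -5.21 for *rgxB*. The value of *rgxB* was -4.01 and not called without deletion replicate 2 at 8 h (adjusted p = 0.14), and -4.60 or -6.20 without reference replicate 1 or 2 at 8 h. In *rgaeA* the strains moved in opposite directions, and each change was called.

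Among side chain and pentose genes, the value was -1.73 for *abfC*, -7.80 for *abnA* (-7.21 or -8.77 without deletion replicate 1 or 2 at 24 h), -3.69 for *abnC*, -2.76 for *ladA*, -2.14 for *xyrA* and 1.31 for *lacB*. That of *xyrA* was -1.53 without deletion replicate 1 at 8 h (adjusted p = 0.051). That of *lacB* was not called without deletion replicate 1 at 8 h (adjusted p = 0.05 as rounded), deletion replicate 2 at 24 h (0.98, adjusted p = 0.11), reference replicate 1 at 8 h (adjusted p = 0.057) or reference replicate 2 at 24 h (adjusted p = 0.074).

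Among xylan, cellulose and starch enzymes, the value was -3.38 for *aguA*, -4.75 for *xlnC* and -3.99 for *glaA* (-3.86 and -3.25 without reference replicate 1 at 24 h), -2.32 for *xlnD* (-1.69 without deletion replicate 1 at 8 h) and -7.10 for *cbhB*. That of *cbhB* was -6.43 or -8.35 without deletion replicate 1 or 2 at 24 h, and -5.09 or -7.90 without reference replicate 1 or 2 at 24 h. The spore pigment genes had 2.03 for *fwnA*, 3.07 for *olvA* and 3.90 for *brnA* (4.55 without reference replicate 1 at 24 h). Of the genes without a name, NRRL3_11773 had -2.99 (-2.21 without reference replicate 1 at 24 h), NRRL3_03768 -4.83 and NRRL3_01479 4.04 (4.83 without reference replicate 2 at 24 h).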

How the results depend on the processing

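Of 31 genes described by name or tag that were called between the times, 26 kept their call and direction under every setting run, and 29 under every setting that kept all libraries. For the difference between strains, 26 of 30 kept theirs, and 30 under every setting that kept all libraries. Settings that kept all libraries are here those that left out no library of the comparison. They include the fits of only the libraries compared, which dropped the other libraries of the series. The count of 2902 calls was between 2889 and 3891 in the settings that kept all libraries, and between 1714 and 2064 with 1 library left out. The count of 3391 for the difference was between 3191 and 3786, and between 2628 and 3120 with 1 library left out. The upper values of 3891 and 3786 came from the fits of only the libraries compared. With all 16 libraries fitted, the highest counts were 3277 between the times and 3518 for the difference. With total count scaling 55.3% of the calls for the difference were positive, against 45.6% with TMM. Replicate numbers were not taken as pairs, since the correlation of replicate deviations was -0.068 between the 2 deletion groups compared and -0.472 to 0.385 over all pairs of groups, and the replicate block gave 2922 and 3403 calls.

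Sign changes occurred in genes that were not called. Between the times *araR* was 0.06 with total count scaling and in both limma fits, *rglA* 0.00 in limma on log2(FPKM + 0.1), and *rglB* 0.03 with total count scaling and 0.02 in both limma fits. For the difference, leaving out 1 library gave -0.15 to 0.61 for *creA*, -1.74 to 0.65 for *pgaII*, -0.92 to 0.44 for *pgaB* and -0.36 to 3.03 for *rglA*, and limma on log2(FPKM + 1) gave 0.12 for *pgaB* and 0.13 for *lacC*. The cause was not tested. Genes with few reads, such as *pmeA* and *pgaC*, are limited by depth.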

Other observations

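Called genes were also found side by side. Counting runs of at least 5 consecutive locus tags called in 1 direction, there were 7 runs of genes called higher at 24 h (52 genes) and 8 runs of genes called lower (45 genes). The runs were found by their calls, so their values are a description. Tag order stands for order on the chromosome here. The longest run held 14 genes called higher, and the difference between the strains was called for 0 of them. Its summed level in the deletion strain was 227 and 175 FPKM at 8 h and 2959 and 2922 FPKM at 24 h, and in the reference strain 29.6 and 15 FPKM and then 260 and 620 FPKM. In the deletion strain 1 gene carried most of this sum: the median member of this run had a mean of 0.485 FPKM at 8 h and 31.4 FPKM at 24 h, and the highest had 189 and 2219 FPKM. In a run of 8 genes (NRRL3_08977 to NRRL3_08984), the sum went from 79.2 and 76.7 FPKM to 781 and 620 FPKM in the deletion strain, and from 26.5 and 19.3 FPKM to 2.71 and 3.05 FPKM in the reference. The other run of 8 genes (NRRL3_08890 to NRRL3_08897) rose in both strains. Its sum went from 21.8 and 33.1 FPKM to 124 and 240 FPKM in the deletion strain. In the reference it went from 18.8 and 24.4 FPKM to 2604 and 785 FPKM. A run of 6 genes called lower went from 5109 and 4328 FPKM to 2413 and 2403 FPKM in the deletion strain, while the reference went from 456 and 456 FPKM to 1042 and 1263 FPKM. The other runs of 6 genes, also called lower, showed no such rise in the reference. Their sums there went from 326 and 358 FPKM to 300 and 306 FPKM, and from 1889 and 2433 FPKM to 1956 and 717 FPKM.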
